A study of Mus musculus with 12 samples.

Results

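The 40 genes described here encode proteins that act in S phase or in mitosis, and they were chosen by gene symbol from a list of cell cycle genes, with no measured value in the rule. All 40 were found among the 52550 genes of the count table, and all 40 passed the filter on low counts that left 18458 genes, so no member was lost. Their transcripts were followed through RNA immunoprecipitation sequencing (RIP-seq), in which an antibody recovers a protein with the RNA bound to it and the recovered RNA is sequenced beside the RNA it was taken from (the input). The samples came from wild-type C57BL/6 mice, from cortex at embryonic day 12.5 and from retina at postnatal day 0. Each tissue gave 3 groups of 2 libraries, namely input, anti-Ythdf1 immunoprecipitate (IP) and anti-Ythdf2 IP, which makes 12 libraries in 6 groups. Tissue and age differ together, no library with an unrelated antibody was analysed here, and the labels do not say how many animals each library pools. Nothing in the labels ties the 2 replicates of a group to separate animals, so that the p-values measure the spread between these libraries, which may be technical.

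Ythdf1 and Ythdf2 are cytoplasmic proteins whose YTH domain binds N6-methyladenosine (m6A), a methyl mark on adenosines of mRNA that is placed mostly within the letters DRACH, of which GGAC is the most used core. Ythdf2 is best known for shortening the life of the mRNAs it binds, and Ythdf1 has been linked to their translation. Cell cycle genes are switched on in 2 waves. E2F factors drive genes of DNA replication at the start of S phase. The DREAM and MuvB complexes, with B-Myb and FoxM1, act on mitotic genes through CHR elements. The promoters of mitotic genes often also hold CCAAT elements. In the embryonic cortex and the newborn retina these genes mark progenitors that still divide, and neurons that have left the cycle carry little of their RNA.

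The library labelled cortex input replicate 1 went against its label and is shown apart. It held 307 counts over the 40 genes, against 149389 in cortex input replicate 2, and 18 of the 40 were at 0. The members summed to 183 counts-per-million of all protein-coding counts (protein-coding CPM) in that library, to 10967 in cortex input replicate 2 and to 3950 to 9479 in the 10 remaining libraries. Markers of mature brain (11 genes, among them Camk2a) summed to 16971 protein-coding CPM in it and to 182 to 668 in the others, while the 7 telencephalon markers summed to 156 there and to 2293 to 2842 in the other cortex libraries. The fits below therefore used the other 11 libraries, so that the cortex input was a single library, assumed to vary like the other groups. With all 12 libraries, edgeR called 0 members in each comparison below except 1, that of the 2 Ythdf1 IPs between tissues, where it called 1. The counts at an unadjusted p under 0.05 were then 0 to 6 of 40.

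Library totals ran from 19530226 to 40515980 counts, of which protein-coding genes took 8.37% to 41.1% in the 11 libraries. The 8 retina markers summed to 1470 to 2328 protein-coding CPM in the retina libraries and to 25.3 to 77.8 in these cortex libraries, so tissue markers followed the labels. Levels are given as normalised CPM (counts-per-million of the scaled library), after scaling by the trimmed mean of M values (TMM). A member is called where edgeR's quasi-likelihood test gave a Benjamini-Hochberg adjusted p under 0.05 over all 18458 genes. Fold changes are log2 values with their standard error (SE).

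Short stretches of transcript around GGAC show how unevenly the members carry this core. The first pair of genes, Mki67 and Hmgb2, has a long and a short coding sequence, of 9531 and 630 bases. Mki67 encodes Ki-67, a protein that coats mitotic chromosomes. Its transcript of 10061 bases has 34 GGAC, and its largest exon, exon 12 of 14, has 6836 bases. The stretches below are GRCm38 coding sequence of exon 12, on the minus strand, around GGACT, with GGAC in capitals.
Mki67, chr7:135700063-135700087: ggaagcaagaGGACtttagaaaaat
Mki67, chr7:135697980-135698004: ctcagacactGGACtcatcagcaag
Mki67, chr7:135695886-135695910: gggaaattgtGGACttacctagaga
Mki67, chr7:135695700-135695724: gcttggtaatGGACtcagttattgt

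Hmgb2 encodes a DNA-bending chromatin protein abundant in dividing cells. Its transcript of 2628 bases has 3 GGAC in all, each in the 3′ UTR in exon 5, on the plus strand.
Hmgb2, chr8:57514657-57514681: aaagcgttaaGGACatactgccttg
Hmgb2, chr8:57514898-57514922: tgtgagatatGGACaggtcttagct
Hmgb2, chr8:57515079-57515103: gttggagttaGGACaccaccaccaa

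Mcm3, a subunit of the MCM2-7 helicase that opens DNA at replication origins, has the most GGAC per length among the members, 7.26 per kilobase (kb) of its transcript. A coding stretch in each of exons 1, 3 and 10 is shown, on the minus strand.
Mcm3, chr1:20820135-20820159: gagactacttGGACttcctggatga
Mcm3, chr1:20817288-20817312: gtctctccccGGACtctcacttcct
Mcm3, chr1:20810177-20810201: ttgggctgcaGGACtcactgctgtc

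The median over members was 3.77 GGAC per kb, and that over 14199 protein-coding genes tested was 4.14. Ccnb1 had the lowest value, 0.804, Ccne2 had 0.998 and Hmgb2 1.14. The highest after Mcm3 were Ube2c (5.93), Mcm2 (5.93), Plk1 (5.91) and Ccnb2 (5.88). Of these, Mcm2 was called higher and Ube2c lower in the retina Ythdf1 IP described below. A link between GGAC per length and recovery was not tested. A GGAC is only a stretch of letters here, since methylation was not measured in these libraries.

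Among the inputs, Hmgb2 had the highest level per length in all 3 libraries used, with 197 CPM per kb of exon in cortex input replicate 2 and 91.8 and 96.0 in the retina inputs. Pcna, the sliding clamp of DNA polymerase, followed in the cortex at 24.4, and Ube2c or Pcna in the retina. The lowest per length was Cdt1 in the cortex input (1.07), Cenpe in retina input 1 (0.249) and Cdc25c, a phosphatase that activates Cdk1, in retina input 2 (0.825). Summed over members, retina inputs held 5954 and 6341 protein-coding CPM; recovery with Ythdf1 left 3950 and 4114 and recovery with Ythdf2 left 4937 and 4815. In the cortex the 1 input used held 10967, the Ythdf1 IPs 9479 and 8058, and the Ythdf2 IPs 7389 and 7111. Every IP used was thus below each input of its tissue that was used, on this scale. Without Hmgb2 and Mki67, which take much of these sums, the other 38 genes held 4144 and 4050 protein-coding CPM in the retina inputs, 3532 and 3683 after Ythdf1 IP, and 4109 and 4219 after Ythdf2 IP. Over these 38 genes the retina Ythdf2 IPs overlapped the inputs. In bulk RNA, fewer cells of a type and less RNA per cell cannot be told apart.

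**Figure D1:**
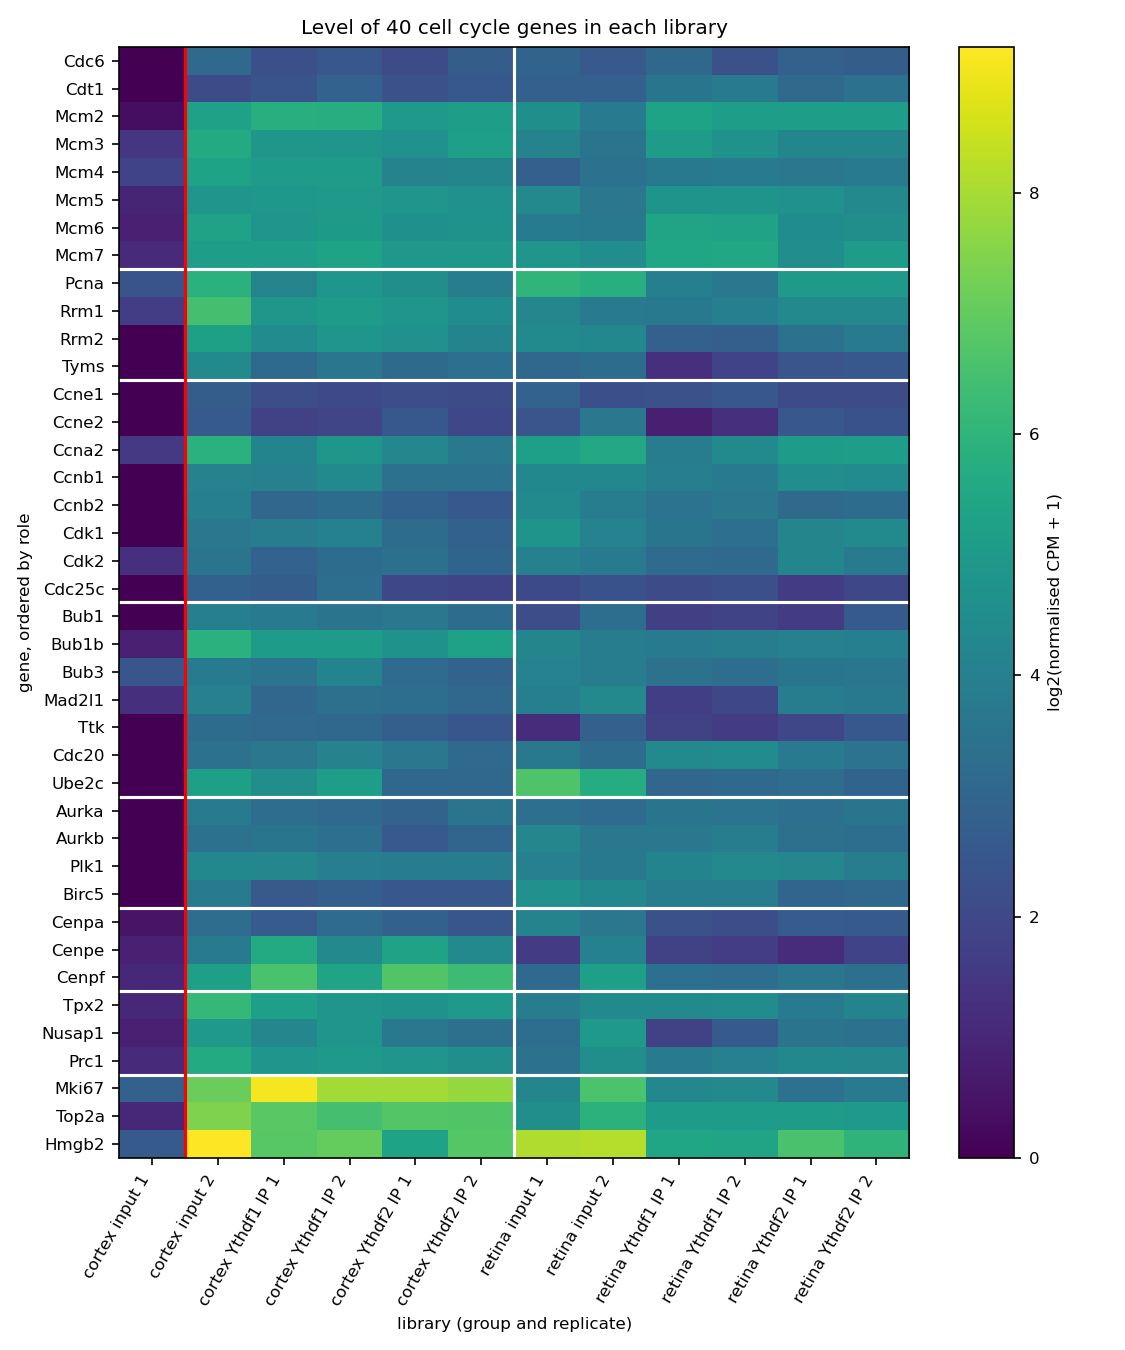
Level of each of the 40 genes (rows, grouped by role) in each of the 12 libraries (columns), as log2(normalised CPM + 1) on a colour scale. The column left of the red line is the library labelled cortex input replicate 1, where 18 of 40 genes were at 0, and Hmgb2 stood at 276, 288 and 592 CPM in the 3 other inputs.

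In the retina, the Ythdf1 IP held more RNA of 4 of the 6 replication helicase subunits than the input, and less of 3 of the 4 genes of DNA synthesis and of 9 other members. Of 40 members, 18 were called, 6 higher and 12 lower, where 30.3% of all genes tested were called, 15.2% higher and 15.1% lower. The median over members was −0.52 on the log2 scale, against 0.00 over all genes tested. The share of members called higher was thus near that of all genes. Scaling to protein-coding counts alone shifted the median of all genes by −0.16 and gave 2 members higher and 15 lower, and without cortex Ythdf1 IP replicate 1, a library that enters only through scaling and the shared spread, 1 was higher and 18 were lower. The count called was 9 without retina Ythdf1 IP replicate 1 and 11 without replicate 2.

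The subunits Mcm2 to Mcm7 form the replicative helicase, and Cdt1 and Cdc6 load it at origins. Mcm6 stood at 12.9 and 12.1 CPM in the retina inputs, against 40.8 and 38.8 after Ythdf1 IP. Both IPs were above both inputs, and the rise was 1.67 ± 0.28 (SE; edgeR adjusted p = 0.000723). It was also called under protein-coding scaling, at 1.5. Mcm3 stood at 16.3 and 10.6 CPM in the inputs and at 32.1 and 25.1 in the IPs, a rise of 1.09 ± 0.32 (SE; edgeR adjusted p = 0.0197). Mcm2 stood at 23.0 and 13.2 CPM in the inputs and at 39.6 and 34.8 in the IPs, a rise of 1.04 ± 0.32 (SE; edgeR adjusted p = 0.0233). For both genes the IPs did not overlap the inputs. Without retina input replicate 2 the edgeR adjusted p was 0.078 for Mcm3 and 0.093 for Mcm2, and under protein-coding scaling that of Mcm2 was 0.055. Mcm7 (0.83) and the loader Cdt1 (0.99) were called as well, and neither was called under protein-coding scaling or without retina input replicate 2. Mcm7 shares 37.6% of its 31-base words with the pseudogene Gm5487. Mcm4 (0.66) and Mcm5 (0.78) did not pass, nor did Cdc6, which stood at 6.86 and 4.94 CPM in the inputs and 7.57 and 3.84 in the IPs.

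The DNA synthesis group holds Pcna, thymidylate synthase (Tyms) and the 2 subunits of ribonucleotide reductase (Rrm1 and Rrm2), which supplies deoxynucleotides. Pcna stood at 63.5 and 53.5 CPM in the retina inputs, against 14.8 and 12 after Ythdf1 IP, and fell by 2.13 ± 0.35 (SE; edgeR adjusted p = 0.0006). Tyms (−2.02) and Rrm2 (−1.68) fell too, whereas Rrm1 was at −0.20 and did not pass. Reads of Pcna are uncertain, since 38.0% of its 31-base words are shared with the pseudogene Pcna-ps2. Thus 4 of the 6 helicase subunits were called higher and 3 of 4 genes of this group lower in the same IP. These calls also split by coding length. All 6 subunits have 2000 to under 4000 coding bases, as does Rrm1 (2376). Over 3268 protein-coding genes of that length the median in this IP was 0.72, and over the subunits it was 0.93. Pcna, Tyms and Rrm2 are under 2000 bases, where the median over 9844 genes was −0.09. Whether role adds to coding length here was not tested.

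Among mitotic genes, Ube2c, the ubiquitin-conjugating enzyme of the anaphase-promoting complex (APC/C), moved most. It stood at 102 and 50.9 CPM in the retina inputs, against 7.27 and 7.81 after Ythdf1 IP, and fell by 3.34 ± 0.39 (SE; edgeR adjusted p = 9.24e-05). Cdc20, the activator of the APC/C, went the other way, from 12 and 8.60 CPM to 20.3 and 20.8, a rise of 1.00 ± 0.33 (SE; edgeR adjusted p = 0.0328). The rise of Cdc20 was not called under protein-coding scaling (edgeR adjusted p = 0.073) or without retina input replicate 2 (0.115). Mad2l1, the checkpoint protein Mad2 that holds Cdc20 inactive, stood at 14.8 and 19.1 CPM in the inputs and at 2.24 and 2.98 in the IPs, and fell by 2.70 ± 0.33 (SE; edgeR adjusted p = 0.000117). Hmgb2 stood at 276 and 288 CPM in the inputs and at 41.5 and 40.6 in the IPs, and fell by 2.78 ± 0.45 (SE; edgeR adjusted p = 0.000573). For all 4 genes the IPs lay outside the range of the inputs. Hmgb2 shares 20.9% of its 31-base words with the pseudogene Gm4739, and Cdc20 25.1% with the pseudogene Gm7856, so part of their reads is uncertain.

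The other called falls were cyclin E2 (Ccne2, −2.93), the spindle protein Nusap1 (−2.39), the centromeric histone Cenpa (−1.88), the checkpoint kinase Bub1 (−1.31), cyclin A2 (Ccna2, −1.27) and the mitotic kinase Cdk1 (−1.05). Bub1, at 3.57 and 9 CPM in the inputs, was at −0.50 without retina input replicate 2 (edgeR adjusted p = 0.463), and Cdk1 at −0.65 without replicate 1 (0.119). Without retina input replicate 2, Nusap1 was at −1.27 and Ccne2 at −2.04, both called. None of the mitotic kinases Plk1, Aurka and Aurkb, or survivin (Birc5), was called in this IP, with values from −0.64 to 0.40. Of the members called in this IP, Ccne2, Ccna2, Nusap1, Ube2c, Mcm7 and Cdc20 have exons that overlap genes on the opposite strand. For Ube2c that gene, Tnnc2, had at most 3 counts in any library. For Ccne2, with at most 401 counts, it was Ints8, with up to 1361 counts and 609 shared exonic bases. For Mcm7, with at most 2789 counts, they were Ap4m1 (up to 905) and Cops6 (up to 1296). The strand setting of the counting is not given in the sources used here. Of 5 endothelial markers, which summed to 272 and 265 protein-coding CPM in the retina inputs and to 751 to 1283 in the retina IPs, Kdr made up nearly all, at 244 and 248 in the inputs and 725 to 1214 in the IPs. The defining markers Pecam1, Cdh5 and Tek were at or near 0 in all 6 retina libraries, and Cldn5 in the Ythdf2 IPs lay between the inputs.

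**Figure D2:**
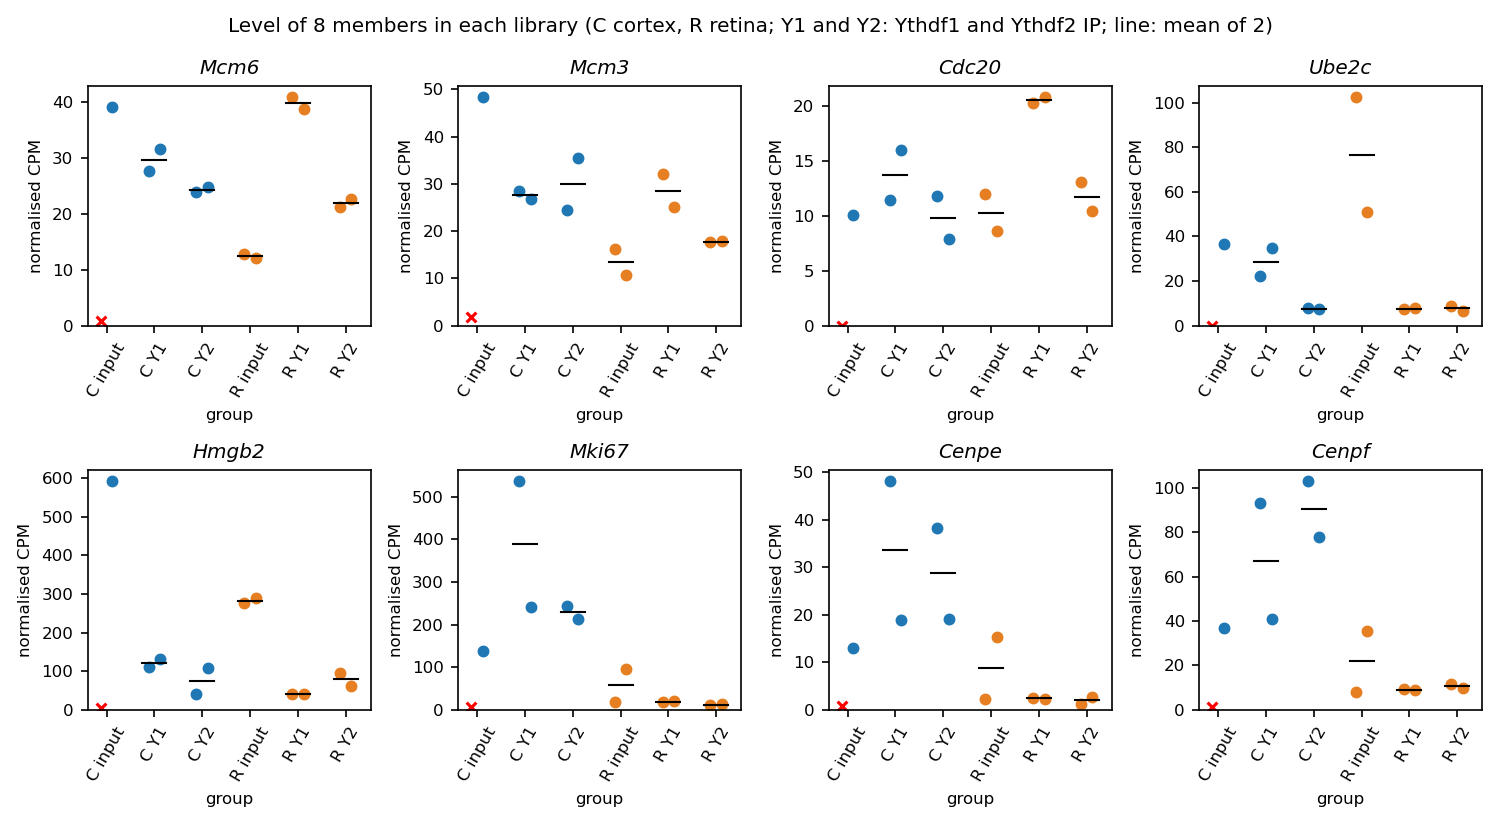
Normalised CPM (vertical axes, from 0) of 8 genes in each library, by group, with 1 point per library and a line at the mean of 2; blue is cortex, orange is retina and the red cross is the library labelled cortex input replicate 1. Mcm6 in the retina rises from 12.9 and 12.1 in the inputs to 40.8 and 38.8 in the Ythdf1 IPs, while Ube2c drops to under 9 CPM in both retina IPs.

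The retina Ythdf2 IP held less RNA of 6 members than the input and more of none. All genes tested gave 8.46% lower, 6.54% higher and 15% called in either direction. The median over members was −0.33, against 0.00 for all genes tested. Ube2c stood at 8.71 and 6.78 CPM in the Ythdf2 IPs and fell by 3.30 ± 0.39 (SE; edgeR adjusted p = 0.000141), a size close to that in the Ythdf1 IP, with which it shares the inputs. Birc5, the survivin subunit of the chromosomal passenger complex, stood at 24.4 and 18.5 CPM in the inputs and at 7.04 and 7.74 in the IPs, a fall of 1.54 ± 0.30 (SE; edgeR adjusted p = 0.00346). Both genes were lower in each IP than in each input.

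Hmgb2 stood at 95.0 and 62.1 CPM in the Ythdf2 IPs and fell by 1.84 ± 0.43 (SE; edgeR adjusted p = 0.0112). Cenpa stood at 16.3 and 11.4 CPM in the inputs and at 5.37 and 5.16 in the IPs, and fell by 1.40 ± 0.34 (SE; edgeR adjusted p = 0.0143). The other 2 called were Mki67, given below, and cyclin B2 (Ccnb2, −0.99). The helicase subunits were at 0.15 to 0.92, all 6 above 0 and none called. The count of members called was 11 without retina input replicate 1, 9 without retina input replicate 2, 1 without retina Ythdf2 IP replicate 1 and 2 without replicate 2.

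The 2 retina IPs were also compared directly. Mad2l1 stood at 2.24 and 2.98 CPM after Ythdf1 IP and at 14.0 and 12.1 after Ythdf2 IP, and was lower with Ythdf1 by 2.33 as log2 ratio (−2.33 ± 0.33 SE; edgeR adjusted p = 0.00232). Ccne2 stood at 0.734 and 1.38 CPM with Ythdf1 and at 4.73 and 3.96 with Ythdf2 (−2.05 ± 0.51 SE; edgeR adjusted p = 0.0295). These were the 2 of 40 called, both lower with Ythdf1, where 6.62% of all genes tested were called, 2.31% higher and 4.31% lower. The inputs were at 14.8 and 19.1 CPM for Mad2l1 and at 4.32 and 11.8 for Ccne2, whose Ythdf2 IPs were near input 1 and below input 2. Neither Mki67 (0.74 ± 0.58 SE; edgeR adjusted p = 0.469) nor Hmgb2 (−0.94 ± 0.43 SE; edgeR adjusted p = 0.196) was called. Without retina Ythdf1 IP replicate 1, edgeR called 0 members (4 at an unadjusted p under 0.05), without retina input replicate 1 or 2 the count was 11, and without Ythdf1 IP replicate 2 or either Ythdf2 IP it was 1.

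In the cortex, where a single input was used, no member was called higher in either IP. The Ythdf1 IP had 2 members lower, with 4.03% of all genes tested called, 1.76% higher and 2.27% lower, and the Ythdf2 IP had 9 lower, with 8.36% called, 2.86% higher and 5.5% lower. The medians over members were −0.41 and −0.72, against 0.00 and 0.05 over all genes tested. With all 12 libraries both medians over members were above 0, at 0.50 and 0.19. The direction over the members in the cortex therefore differed with the choice of input.

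Hmgb2 stood at 592 CPM in cortex input replicate 2, at 111 and 130 after Ythdf1 IP and at 39.3 and 108 after Ythdf2 IP. It fell by 2.30 ± 0.50 with Ythdf1 (SE; edgeR adjusted p = 0.0206) and by 3.01 ± 0.50 with Ythdf2 (SE; edgeR adjusted p = 0.00352). Hmgb2 was called lower in all 4 comparisons of an IP with its input, where the 2 IPs of a tissue share their input. In the library left out it stood at 5.14 CPM. Rrm1 stood at 88.7 CPM in the cortex input, 28.2 and 33.0 after Ythdf1 IP and 27.3 and 21.5 after Ythdf2 IP. It fell by 1.54 ± 0.35 (SE; edgeR adjusted p = 0.0286) and by 1.86 ± 0.35 (SE; edgeR adjusted p = 0.00624).

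Ube2c differed between the 2 cortex IPs. It stood at 36.7 CPM in the input, 22.4 and 34.8 after Ythdf1 IP and 7.74 and 7.5 after Ythdf2 IP. It fell by 2.27 ± 0.42 with Ythdf2 (SE; edgeR adjusted p = 0.00538) and was at −0.36 with Ythdf1, which did not pass. In the direct comparison it was higher with Ythdf1 by 1.91 ± 0.37 (SE; edgeR adjusted p = 0.0289), as the single member called where 0.688% of all genes tested were called, 0.656% higher and 0.0325% lower. That call was lost, with 0 members left, without cortex Ythdf1 IP replicate 2, without either cortex Ythdf2 IP and without any of the 4 retina IPs, where edgeR left 5 to 7 members at an unadjusted p under 0.05. Mki67 (0.77 ± 0.57 SE; edgeR adjusted p = 0.752) and Hmgb2 (0.71 ± 0.42 SE; edgeR adjusted p = 0.643) were not called between these IPs.

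With Ythdf2, cyclin A2 (Ccna2) stood at 58.2 CPM in the cortex input and at 18.3 and 12 in the IPs, a fall of 1.94 ± 0.41 (SE; edgeR adjusted p = 0.0107). The other 5 called were Pcna (−1.69), Birc5 (−1.43), Ccnb2 (−1.40), the spindle assembly factor Tpx2 (−1.32) and Mcm4 (−1.24). All 8 cyclins, Cdks and Cdc25c, all 7 checkpoint and APC/C genes, and all 6 helicase subunits had estimates below 0 with Ythdf2, of which 2, 1 and 1 passed the test. With Ythdf1, 3 of the 6 helicase subunits had estimates above 0 and none was called. Leaving out Ythdf2 IP replicate 1 or 2 gave 5 or 2 called with Ythdf2, and leaving out either cortex Ythdf1 IP, or either retina Ythdf1 IP, gave 0 with Ythdf1 (6 to 10 at an unadjusted p under 0.05 in edgeR). With Ythdf1 the count was also 1 without either retina Ythdf2 IP and 6 without either retina input. Erythroid markers (1245 to 5209 protein-coding CPM in these cortex libraries, at most 4.65 in the retina) and meningeal markers (253 to 622, at most 3.83 in the retina) were present in the cortex, and their part was not tested.

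**Figure D3:**
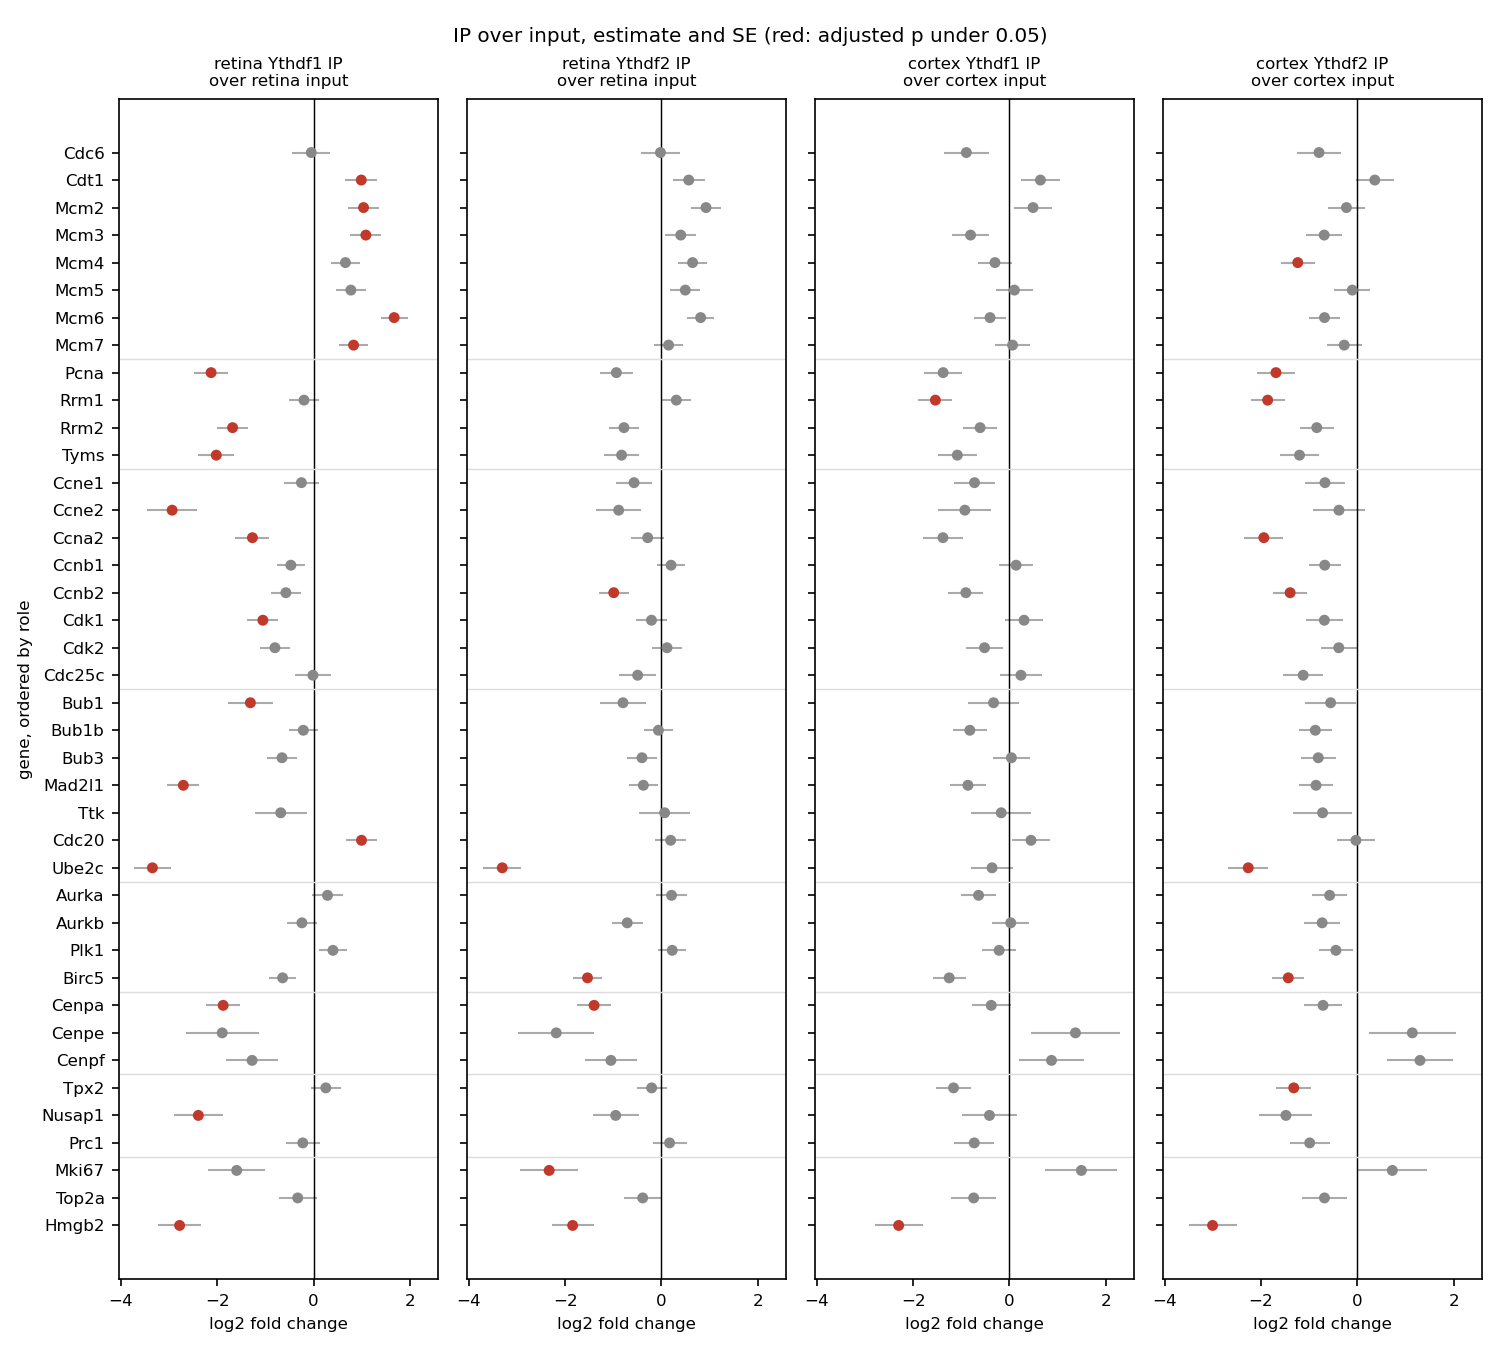
Estimated log2 fold change of IP over input (horizontal axes) with its SE (bars) for the 40 genes, ordered by role, in the 4 comparisons. Red points have an edgeR adjusted p under 0.05: 6 above 0 and 12 below in the retina Ythdf1 IP, and 6, 2 and 9, all below 0, in the others.

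The members with the longest coding sequences were compared with the shorter ones. Mki67 (coding length 9531 bases), Cenpf (8991) and Cenpe (7413) have the longest coding sequences among the members, followed by Top2a (4584), and the median was 1419 bases. Cenpe is a kinetochore motor, Cenpf a kinetochore protein and Top2a the topoisomerase that untangles sister chromatids. Mki67 stood at 138 CPM in the cortex input, at 537 and 241 in the cortex Ythdf1 IPs and at 244 and 213 in the Ythdf2 IPs. All 4 IPs lay above that input, but the estimates of 1.49 ± 0.75 (SE; edgeR adjusted p = 0.309) and 0.73 ± 0.72 (SE; edgeR adjusted p = 0.629) did not pass. Cenpe, at 13.0 CPM in the input and 19 to 48.1 in the IPs, and Cenpf, at 36.7 and 41 to 103, were likewise above the input in all 4 IPs and were not called. Top2a went the other way, at 170 CPM in the cortex input and 89.1 to 114 in the IPs (−0.74 and −0.68, neither called). The 2 cortex Ythdf1 IPs differed on the 3 longest. The log2 ratio of replicate 1 to replicate 2 was 1.15 for Mki67, 1.34 for Cenpe, 1.19 for Cenpf and 0.35 for Top2a. Between the cortex Ythdf2 IPs it was 0.20, 1.00, 0.41 and 0.05, in the same order.

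In the retina the same 3 genes were low in the IPs, and the 2 inputs did not agree on them. Mki67 stood at 18 and 95.9 CPM in retina inputs 1 and 2, at 18.5 and 19.2 after Ythdf1 IP and at 10.2 and 12.4 after Ythdf2 IP. It was at −1.59 ± 0.59 with Ythdf1 (SE; edgeR adjusted p = 0.053) and fell by 2.33 ± 0.60 with Ythdf2 (SE; edgeR adjusted p = 0.0184). Against retina input replicate 1 alone, the Ythdf1 IPs were at 0.07 and the Ythdf2 IPs at −0.67 as log2 ratios of mean CPM, and against replicate 2 alone at −2.35 and −3.08. Without retina input replicate 2 the fall with Ythdf2 was not called (edgeR adjusted p = 0.3).

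Cenpe stood at 2.14 and 15.3 CPM in the retina inputs and at 1.27 to 2.58 in the 4 IPs. Cenpf stood at 7.90 and 35.6 in the inputs and at 8.80 to 11.4 in the IPs. For both genes the IPs were near input replicate 1 and below replicate 2. The log2 ratio of retina input 1 to input 2 was −2.84 for Cenpe, −2.42 for Mki67, −2.26 for the checkpoint kinase Ttk, −2.17 for Cenpf, −1.75 for Nusap1, −1.44 for Ccne2 and −1.41 for Top2a. At the other end it was 1.01 for Ube2c. Across the 40 members, the log2(CPM + 1) levels of the 2 retina inputs correlated at a Pearson r of 0.733 and those of the IP pairs at 0.949 to 0.975, as a description of these libraries. Across members the Spearman rho of this ratio with the GC percent of the transcript was 0.69, and across 14169 protein-coding genes it was 0.55. Exceptions among the AT-rich members included Hmgb2 (−0.07 at 38.7% GC), Mad2l1 (−0.37 at 40.1%), Bub3 (0.25 at 42.3%), Ccnb1 (−0.02 at 44.2%) and Rrm1 (0.54 at 44.4%). With coding length the values were −0.37 and −0.22. The members are AT-richer than most genes, with a median GC of 47.3% against 50.3%.

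**Figure D4:**
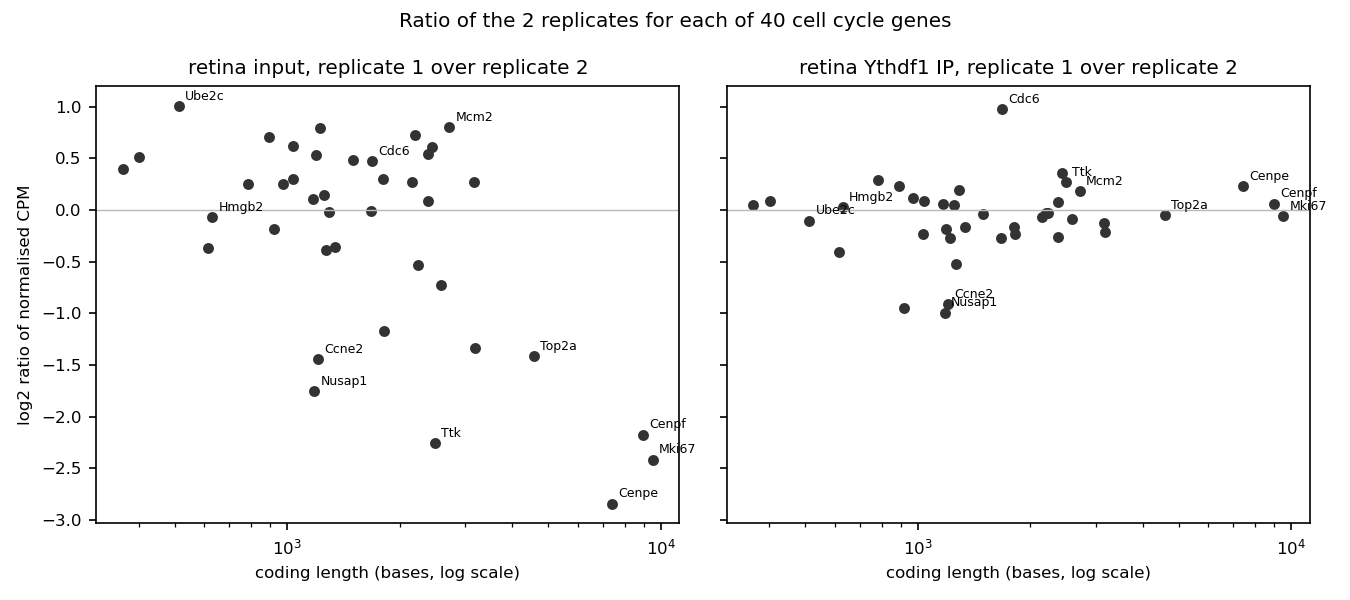
Log2 ratio of normalised CPM in replicate 1 over replicate 2 (vertical axis) against coding length in bases (horizontal axis, log scale) for each of the 40 genes, in pairs of replicates of 1 group. Mki67, Cenpe and Cenpf lie between −2.17 and −2.84 for the retina inputs.

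Coding length was related to the estimates in both tissues, as a description across genes that share libraries. The Spearman rho of coding length with IP over input across the 40 members was 0.46 for retina Ythdf1, 0.36 for retina Ythdf2, 0.37 for cortex Ythdf1 and 0.48 for cortex Ythdf2. Across protein-coding genes tested, it was 0.39, 0.37, 0.17 and 0.31. Genes with coding sequences of 4000 bases or more had medians of 1.02 (retina Ythdf1) and 0.66 (retina Ythdf2), whereas the 4 members of that class had −1.43 and −1.62. The retina values of these 4 depended on the input. Against retina input replicate 1 alone, the log2 ratios with Ythdf1 were 0.07 (Mki67), 0.54 (Top2a), 0.13 (Cenpe) and 0.19 (Cenpf). With Ythdf2 they were −0.67, 0.48, −0.16 and 0.41, in the same order. Against replicate 2 alone all were below 0, from −0.87 to −2.71 with Ythdf1 and from −0.93 to −3.08 with Ythdf2. In the cortex the 4 members had medians of 1.12 and 0.93, with Top2a below 0 in both, against 0.34 and 0.57 for the class. In the middle class, from 2000 to under 4000 bases, which holds all 6 helicase subunits, the retina Ythdf1 medians were 0.66 for 11 members and 0.72 for 3268 genes. Short coding sequences, under 2000 bases, had a median of −0.65 over 25 members and −0.09 over 9844 genes in that IP. The split by total exon length ran otherwise: the Spearman rho across members was −0.11 for retina Ythdf1 and −0.01 for retina Ythdf2, against 0.21 and 0.34 over all protein-coding genes tested. GC percent was related to the retina Ythdf1 estimates at a rho of 0.62 across members and 0.34 across all.

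**Figure D5:**
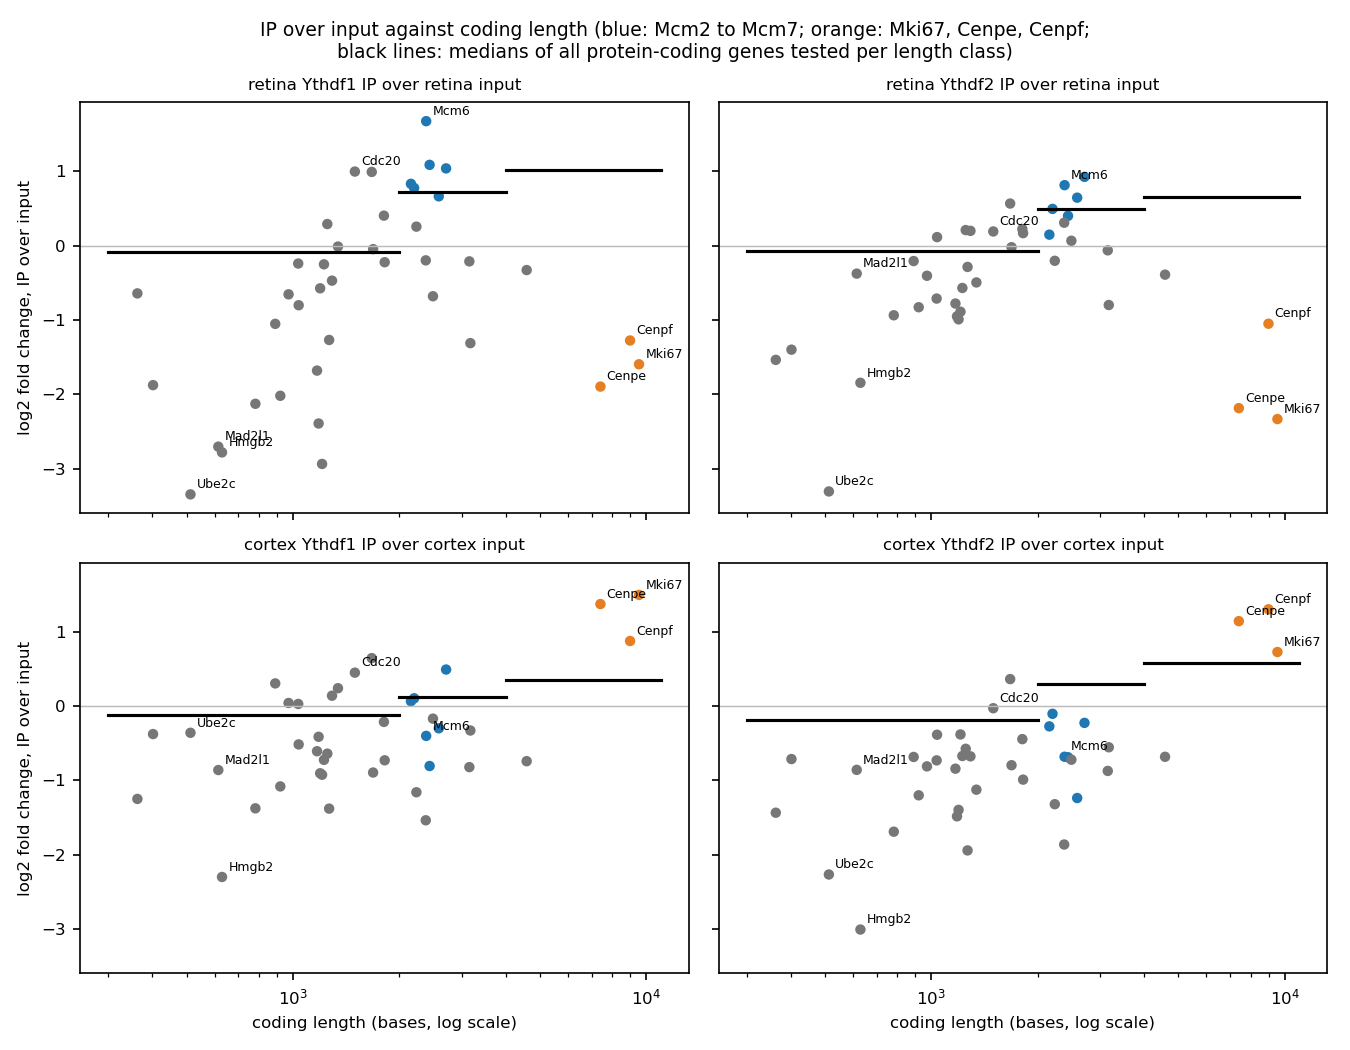
Log2 fold change of IP over input (vertical axes) against coding length in bases (horizontal axes, log scale) for the 40 genes in 4 comparisons, with Mcm2 to Mcm7 in blue, Mki67, Cenpe and Cenpf in orange and black lines at the medians of all protein-coding genes tested in each length class. The orange points lie above 0 in the cortex and below 0 in the retina, where the inputs disagreed on these genes.

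Between tissues, 9 members were lower in the retina inputs than in the cortex input and none was higher, where 12% of all genes tested were lower, 10% higher and 22% called. The median over members was −0.57 and that over all genes tested −0.14. Rrm1 stood at 88.7 CPM in the cortex input and at 18.4 and 12.7 in the retina inputs (−2.51 ± 0.36 SE; edgeR adjusted p = 0.000275). Mcm4 stood at 39.8 CPM against 6.03 and 9.96 (−2.31 ± 0.35 SE; edgeR adjusted p = 0.0005). Tpx2 stood at 69.6 CPM against 14.1 and 20.5 (−2.01 ± 0.36 SE; edgeR adjusted p = 0.00157), and Bub1b, the checkpoint protein BubR1, at 57.3 against 17.1 and 14.1 (−1.88 ± 0.35 SE; edgeR adjusted p = 0.00174). Each of these was higher in the 1 cortex input than in both retina inputs. Mcm3, Mcm6, Top2a, the spindle protein Prc1 and Tyms made up the 9. Hmgb2 (−1.07 ± 0.50 SE; edgeR adjusted p = 0.141) and Mki67 (−1.28 ± 0.67 SE; edgeR adjusted p = 0.19) did not pass. Across members the Spearman rho with coding length was −0.68, and −0.30 across protein-coding genes tested. The count without retina input replicate 2 was 18, of which 3 were higher. With all 12 libraries the median over members was 0.34.

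The IPs of the same antibody were compared between tissues, where a difference can come from the input as well as from the recovery. In the Ythdf1 IPs, 17 members were lower and 2 higher in the retina, where 17.3% of all genes tested were lower, 14.7% higher and 32% called. Mki67 stood at 537 and 241 CPM in the cortex and 18.5 and 19.2 in the retina, and was lower by 4.37 as log2 value (−4.37 ± 0.65 SE; edgeR adjusted p = 0.000276). This was the 1 call that was also made with all 12 libraries. Rrm2 stood at 20.6 and 27.4 CPM in the cortex and 6.17 and 5.91 in the retina (−1.99 ± 0.32 SE; edgeR adjusted p = 0.000412). Tyms (−2.25 ± 0.37 SE; edgeR adjusted p = 0.000555) and Ube2c (−1.92 ± 0.37 SE; edgeR adjusted p = 0.00163) were lower, as was Hmgb2 (−1.55 ± 0.43 SE; edgeR adjusted p = 0.0145). Cenpe (−3.84) and Cenpf (−2.90) had the largest falls after Mki67.

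The 2 higher were Birc5, at 4.99 and 5.70 CPM in the cortex and 14.0 and 13.5 in the retina (1.36 ± 0.30 SE; edgeR adjusted p = 0.00343), and Cdt1, at 4.21 and 6.39 against 11.1 and 13.3 (1.21 ± 0.33 SE; edgeR adjusted p = 0.0132). The retina values of both lay above the cortex values. The count of members called was 11 without retina Ythdf1 IP replicate 1 and also without replicate 2.

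In the Ythdf2 IPs, 6 members were lower and 5 higher in the retina, where 12.3% of all genes tested were lower, 11.5% higher and 23.8% called. Mki67 stood at 244 and 213 CPM in the cortex and 10.2 and 12.4 in the retina (−4.34 ± 0.66 SE; edgeR adjusted p = 0.000329). Cenpf (−3.10 ± 0.58 SE; edgeR adjusted p = 0.00158), Cenpe (−3.90 ± 0.82 SE; edgeR adjusted p = 0.00537) and Top2a (−1.75 ± 0.40 SE; edgeR adjusted p = 0.00586) were lower, so that the 4 members with the longest coding sequences were lower in the retina in both IPs. Hmgb2 was at 0.09 ± 0.42 (SE; edgeR adjusted p = 0.894).

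The 5 members higher in the retina Ythdf2 IPs were 2 cyclins, 2 Cdks and the licensing factor Cdt1. Cdk1 stood at 8.67 and 6.19 CPM in the cortex and 17.1 and 19.6 in the retina (1.31 ± 0.33 SE; edgeR adjusted p = 0.00983). Its partner cyclin B1 (Ccnb1) stood at 9.82 and 10.1 against 21.9 and 20.9 (1.1 ± 0.29 SE; edgeR adjusted p = 0.0122), although 40.2% of its 31-base words are shared with the pseudogene Ccnb1-ps. Ccna2 (1.16 ± 0.35 SE; edgeR adjusted p = 0.0276), Cdt1 (1.07 ± 0.33 SE; edgeR adjusted p = 0.0291) and Cdk2 (0.92) were the others. On the deposited FPKM values, limma gave the first 4 of these the opposite sign, with none called. Without retina Ythdf2 IP replicate 1 or 2 the count of members called was 4, and it was 4 without cortex Ythdf2 IP replicate 2 and 7 without replicate 1.

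The difference in enrichment, retina IP over input minus cortex IP over input, tested whether the 2 tissues differed. With Ythdf1, 3 of 40 members were called, where 3.75% of all genes tested were called, 1.09% higher and 2.67% lower. Mcm6 (2.08 ± 0.43 SE; edgeR adjusted p = 0.017) and Mcm3 (1.89 ± 0.49 SE; edgeR adjusted p = 0.0482) were higher in the retina, where they stood at 1.67 and 1.09 against −0.40 and −0.81 in the cortex. Ube2c was lower in the retina by 2.98 as log2 value (−2.98 ± 0.60 SE; edgeR adjusted p = 0.0159), at −3.34 against −0.36. Mcm6 and Mcm3 were called lower in the retina inputs and were not called between the Ythdf1 IPs of the tissues. Ube2c was not called between the inputs and was lower in the retina Ythdf1 IPs. In the difference, all 6 helicase subunits had estimates above 0, from 0.55 to 2.08, of which Mcm6 and Mcm3 passed. Mki67 was at −3.09 ± 0.96 (SE; edgeR adjusted p = 0.0896) and Hmgb2 at −0.48 ± 0.67 (SE; edgeR adjusted p = 0.743). With Ythdf2, Rrm1 alone was called (2.17 ± 0.47 SE; edgeR adjusted p = 0.046), at 0.31 in the retina against −1.86 in the cortex, where 0.856% of all genes tested were called, 0.417% higher and 0.439% lower. Mki67 was at −3.06 ± 0.96 (SE; edgeR adjusted p = 0.147) and Hmgb2 at 1.16 ± 0.66 (SE; edgeR adjusted p = 0.438). For Ythdf1 the edgeR count was 0 without retina Ythdf1 IP replicate 1 or 2 or cortex Ythdf1 IP replicate 2 (10 or 11 at an unadjusted p under 0.05), 10 without retina input replicate 1 and 7 without replicate 2. For Ythdf2 it was 0 without any 1 of the 8 IP libraries (6 to 13 at an unadjusted p under 0.05), 6 without retina input replicate 1 and 5 without replicate 2.

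Another 118 cell cycle genes, in 6 lists, were measured in the same fits, and all 118 passed the filter. In the retina Ythdf1 IP, 16 were called higher and 29 lower (median −0.33), where all genes tested gave 15.2% and 15.1%. In the retina Ythdf2 IP 8 were higher and 18 lower (median −0.20), where all gave 6.54% and 8.46%. The higher counts were thus near or below the share over all genes. In the cortex, 2 were higher and 4 lower with Ythdf1 (median −0.33), near the 1.76% and 2.27% of all genes tested, and 1 and 13 with Ythdf2 (median −0.48), where all gave 2.86% and 5.5%. The 40 replication genes of these lists, which hold the DNA polymerases, the clamp loader and the origin complex, gave 8 higher and 10 lower in the retina Ythdf1 IP (15.2% and 15.1% of all genes tested), with Fen1, Pold1 and Pole among the higher and Dut and Rpa3 among the lower. The 23 kinetochore and cohesion genes gave 2 higher and 8 lower there, against the same 15.2% and 15.1%. Retina inputs against the cortex input gave 4 higher and 33 lower of the 118 (median −0.75), where all genes tested gave 10% and 12% (median −0.14).

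The promoters show the 2 classes of control elements named above, as letters only. RefSeq gave a promoter (GRCm38.p6, 250 bases before to 50 after the start) for 34 of the 40. The letters TTTGGCGC or TTTCCCGC, searched on both strands as E2F sites, were found in 7 of 34 (20.6%) and in 3.25% of the 11836 genes tested that have a promoter (1.80% of all 27025). The CHR letters TTTGAA were found in 16 of 34 (47.1%) against 14.2% of genes tested (20.2% of all), and CCAAT in 27 (79.4%) against 42.5% (41.1%). The members were picked as cell cycle genes, so these shares describe the choice. The promoters of Mcm6, with 2 E2F matches, and of Cdk1, with 2 CHR matches, are shown with those letters in capitals, both on the minus strand. These genes are shown because they moved in opposite directions in the retina Ythdf1 IP. The fall of Cdk1 was the smallest called there and depended on the retina input, as given above. Of the other members called there, Mcm3, Mcm7 and Cdt1 (higher) have E2F matches, and Hmgb2, Ube2c and Cenpa (lower) have CHR matches. Mcm2 and Cdc20, called higher, have a CHR match and no E2F match. Pcna, Tyms, Rrm2, Mad2l1, Nusap1 and Bub1, called lower, have neither. Ccna2 and Ccne2, also called lower, are among the members with no promoter here. A link between these letters and recovery was not tested.
Mcm6, chr1:128359656-128359955: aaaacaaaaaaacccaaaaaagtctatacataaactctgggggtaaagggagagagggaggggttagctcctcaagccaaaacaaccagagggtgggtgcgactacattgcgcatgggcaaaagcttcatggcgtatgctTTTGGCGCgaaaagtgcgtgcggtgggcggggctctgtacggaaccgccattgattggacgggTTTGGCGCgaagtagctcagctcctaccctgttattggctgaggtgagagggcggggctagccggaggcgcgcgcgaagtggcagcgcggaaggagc
Cdk1, chr10:69352863-69353162: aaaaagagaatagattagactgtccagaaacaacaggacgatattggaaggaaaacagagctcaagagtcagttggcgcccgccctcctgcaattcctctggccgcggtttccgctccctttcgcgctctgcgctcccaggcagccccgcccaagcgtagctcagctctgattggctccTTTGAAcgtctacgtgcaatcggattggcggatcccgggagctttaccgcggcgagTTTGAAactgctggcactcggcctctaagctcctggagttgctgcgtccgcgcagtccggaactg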

How the data were processed

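RIP-seq of cortex and retina was analysed from the tables the authors deposited. The authors deposited raw read counts per gene for 12 libraries, made with STAR 2.5 and HTSeq on GRCm38 per the submitters' processing notes, and FPKM values for the same libraries. Which annotation release, filters and strand option were used is not given in the sources used here. Identifiers were matched to GENCODE M21 (52403 of 52550 had a symbol), which also gave transcript sequence, coding length and coordinates.

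Genes were kept by filterByExpr (minimum count 10, minimum total 15) over the 6 groups. One edgeR 4.0.16 quasi-likelihood model (robust, TMM, R 4.3.3) with 1 mean per group was fitted to 11 libraries, with 5 residual degrees of freedom, for 11 comparisons. Tests were two-sided, with Benjamini-Hochberg adjustment over all 18458 genes and calls at an adjusted p under 0.05. The SE was taken as |log2 fold change| over the root of the F statistic. The 2 IPs of a tissue share their input.

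Depth sets the precision: 3 counts equal 0.0323 to 0.186 CPM in the 11 libraries, and such floors cover counting error only. The script was tested on simulated data. Sequence features come from the longest protein-coding transcript of each gene. Alternatives were all 12 libraries, each tissue alone, protein-coding scaling, no filter, a replicate block, DESeq2 1.42.0, limma 3.58.1 on log2(FPKM + 1) and leaving out each library. By rule, fold changes with SE are given for the 4 higher and 4 lower called members with the smallest p, plus Mki67 and Hmgb2. The members, lists and tests were chosen with earlier results of these data known; GC percent and the choice of genes whose sequences are shown were added after their values were seen.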

Additional observations from a re-analysis of the deposited data

Results flagged for a closer look

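For 4 members the enrichment over input differed between the tissues by the test of the difference itself. With Ythdf1, Ube2c was lower in the retina than in the cortex (−2.98 as the log2 difference), and Mcm6 (2.08) and Mcm3 (1.89) were higher. With Ythdf2, Rrm1 was higher in the retina (2.17). All 4 rest on 1 cortex input library. With all 12 libraries the edgeR adjusted p was 0.298, 0.731, 0.767 and 0.799, in the same order. In the inputs, Mcm6, Mcm3 and Rrm1 were called lower in the retina (−1.65, −1.85 and −2.51), and their part in the difference was not tested. Mcm6 and Mcm3 were not called between the Ythdf1 IPs of the tissues, nor was Rrm1 between the Ythdf2 IPs.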

How the results depend on the processing

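Counts of members called are given in the order of the 4 comparisons of IP with input (retina Ythdf1, retina Ythdf2, cortex Ythdf1, cortex Ythdf2), the 2 antibody comparisons (retina, cortex), the 3 tissue comparisons (input, Ythdf1 IP, Ythdf2 IP) and the 2 differences in enrichment (Ythdf1, Ythdf2). The counts reported were 18, 6, 2, 9, 2, 1, 9, 19, 11, 3 and 1. With all 12 libraries they were 0, 0, 0, 0, 0, 0, 0, 1, 0, 0 and 0. Limma on FPKM gave 7, 1, 32, 9, 0, 12, 35, 10, 28, 16 and 1. At 0 in the retina antibody comparison, limma left 7 members at an unadjusted p under 0.05. DESeq2 gave 10 for retina Ythdf2, 6 for cortex Ythdf1, 9 and 2 for the antibody comparisons, and 6 and 5 for the differences in enrichment. With no filter the count was 5 for cortex Ythdf1, 4 for the retina antibody comparison, and 6 and 5 for the differences. The retina alone gave 5 in the antibody comparison, and protein-coding scaling gave 0 for the Ythdf2 difference, with 7 at an unadjusted p under 0.05. Leaving out 1 library gave 9 to 22, 1 to 11, 0 to 6, 2 to 12, 0 to 11, 0 to 1, 8 to 18, 11 to 21, 4 to 15, 0 to 10 and 0 to 6; no value exists without cortex input replicate 2 where that input is needed. The cause of these changes was not tested.

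With the replicate number as a block within each tissue, the count was 0 for cortex Ythdf1, 3 for cortex Ythdf2, 7 for the Ythdf2 IPs between tissues, and 1 and 0 for the differences. At 0, 7 members (cortex Ythdf1) and 8 (Ythdf2 difference) had an unadjusted p under 0.05. The deviations of same-numbered libraries correlated at −0.0762 to 0.0582, so the numbers were not shown to pair the libraries.

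For members named with a fold change, 818 values under alternatives kept direction and side of the threshold, 162 lost the call, 16 gained it, 10 moved and 4 reversed. Those 4 were all limma on FPKM for the Ythdf2 IPs, retina over cortex: Cdk1 −0.12, Ccnb1 −0.31, Ccna2 −0.25 and Cdt1 −0.31. Depth limits the members under 5 CPM, among them Ccne2, Cdc25c and Cenpe in the retina.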
